A study of Mus musculus with 40 samples.

Results

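The cerebellum of aged Ttpa-/- mice without dietary vitamin E was compared with the cerebellum of young wild-type mice. The first group held mice of 29 months that lacked Ttpa and had been kept on a vitamin E-deficient diet. The second held wild-type mice of 2 months on a normal diet with 36 mg of alpha-tocopherol per kg. Each group had 4 arrays, 1 per mouse, so 8 of the 40 arrays of the series carried the comparison. They were chosen by the genotype, age, diet and region on their labels. All mice had a C57Bl/6 background. Age, genotype and diet all differed between the groups, so the share of each in a difference between them cannot be told apart here. 3 other cerebellar groups of 4 arrays stand beside the results: aged wild type on the normal diet, aged wild type on the deficient diet, and aged Ttpa-/- on a supplemented diet with 600 mg of alpha-tocopherol per kg, all of 29 months. The cortex of the same genotype, age and diet combinations, with 4 arrays per group, was used to compare regions. The part of Ttpa removed in the knockout line is not given in the sources used here.

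Ttpa encodes the alpha-tocopherol transfer protein, a lipid carrier made mainly in the liver that loads vitamin E for export into plasma lipoproteins. Its loss causes ataxia with vitamin E deficiency in humans, a disorder marked by failing coordination. The cerebellum coordinates movement through Purkinje cells and a very large number of granule cells, and holds Bergmann glia, oligodendrocytes and microglia beside them. Microglia are the resident immune cells of the brain, and in aged or damaged tissue they take on a disease-associated state with genes of phagocytosis, lipid handling and chemokine release.

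Each value below is a level on the log2 scale relative to the 75th percentile of gene probes on its array, so 0 is that percentile, and a change is a difference of such levels (Ttpa-/- on the deficient diet minus young). Between 55.2% and 57.0% of probes were well above background on each of the 8 arrays, and none was saturated. Levels of different genes are not compared, since each probe has its own brightness. The labels of the tissue were checked against marker genes: all 18 Purkinje and all 17 granule cell markers were above background on every one of the 8 arrays, with summed signals of 867 to 1164 and 510 to 672 times the 75th percentile, against 0.79 to 1.46 for 11 forebrain neuron markers. Purkinje sums overlapped between the groups, and granule cell sums were higher in every young array (620 to 672) than in any Ttpa-/- array (510 to 565). Choroid plexus markers stood apart in the young arrays, with sums of 256, 33.8, 12.5 and 9.51 in replicates 1 to 4 against 6.09, 7.71, 6.19 and 7.34 in the Ttpa-/- arrays. Red cell markers summed to 36.7, 37.7, 26.5 and 39.6 in the young arrays and 35, 157, 134 and 42.4 in the Ttpa-/- arrays. In whole tissue, fewer cells of a type and less RNA per cell cannot be told apart. The young arrays shared slide 3 and the Ttpa-/- arrays slide 5, so slide and group cannot be told apart either, except against Ttpa-/- mice on the supplemented diet, which lay on slide 5 too.

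**Figure D1:**
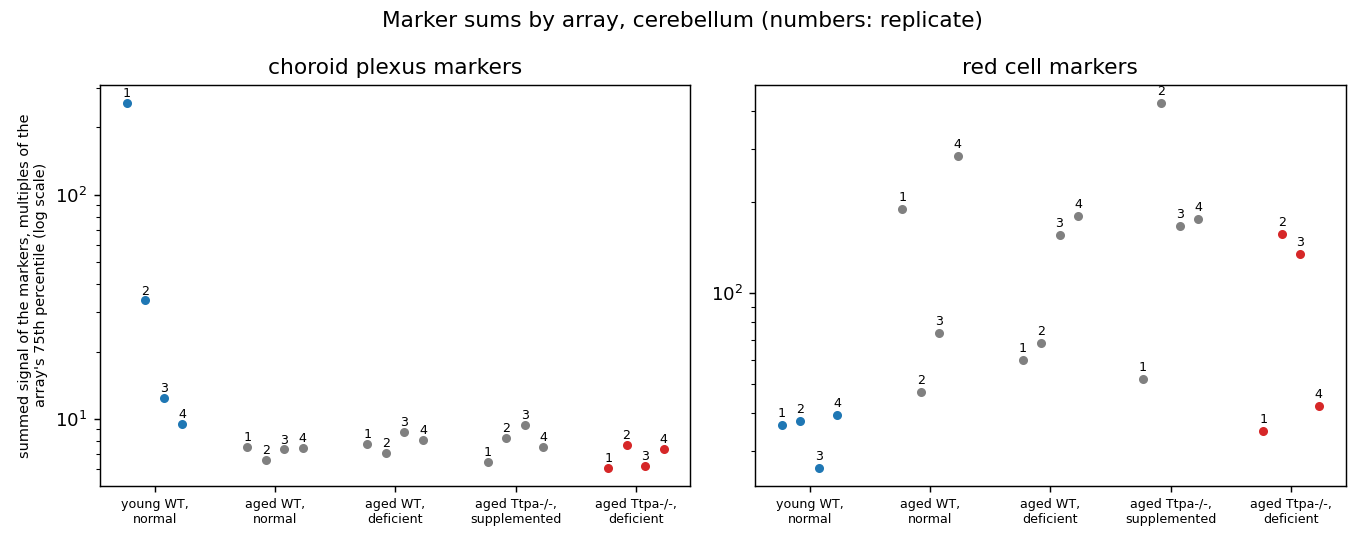
Summed signal of choroid plexus markers (left) and red cell markers (right) on each cerebellar array, in multiples of the array's 75th percentile on a log axis; each point is 1 array and its number is the replicate. Young replicates 1 and 2 carry the highest choroid plexus sums (256 and 33.8), while the red cell sum varies within every aged group.

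Of 29976 probes tested, 1807 were higher in the Ttpa-/- cerebellum (6.03%) and 1048 were lower (3.5%), 9.52% in all. Calls were made with limma, at more than a 1.5-fold difference and an adjusted p below 0.05. Scaling to the median of each array in place of the 75th percentile gave 1211 higher and 1293 lower, so the share of calls that were higher went from 63.3% to 48.4%. In 7183 of the tested probes (24.0%), and 2375 of the 2855 called, no young array overlapped a Ttpa-/- array. For a single gene without overlap the exact two-sided permutation test over the 8 arrays gave p = 0.0286, the smallest that 4 arrays against 4 allow. The limma p-values rest on the spread between mice within groups, pooled over all 10 groups of the series. The fit to the 8 arrays alone gave 1490 higher and 734 lower.

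**Figure D2:**
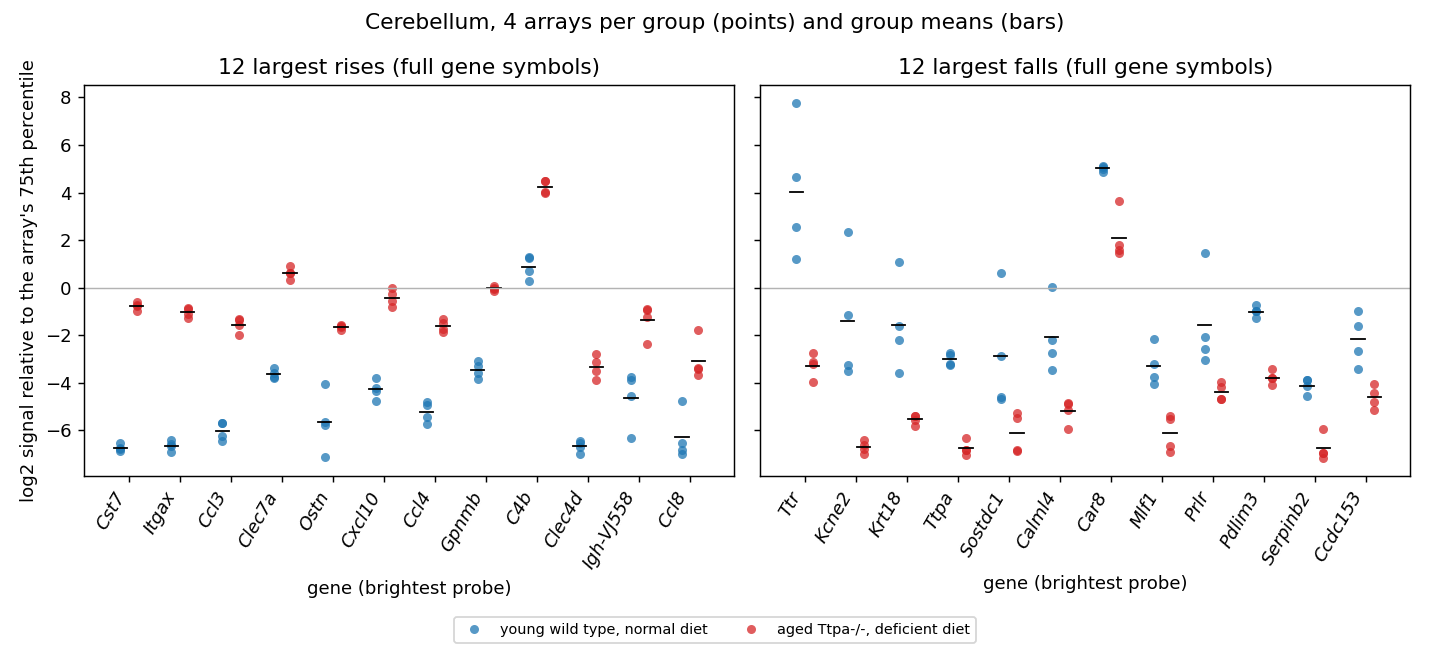
Levels of the 12 genes with the largest rises (left) and the largest falls (right) among genes with a full symbol and no overlap between the groups, which leaves out clone names such as Gm13298, on the log2 scale relative to the 75th percentile of each array. Each point is 1 array, bars are group means; no young array overlaps a Ttpa-/- array for any of the 24 genes, and the young arrays spread widely for Ttr, Kcne2, Krt18, Sostdc1 and Prlr.

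The targeted gene was checked first. Ttpa, measured by a probe at chr4:19957856-19957915 (mm9), was at -3.27, -2.83, -2.76 and -3.20 in the young arrays and -6.84, -7.04, -6.83 and -6.34 in the Ttpa-/- arrays. All 4 young arrays were well above background and none of the 4 Ttpa-/- arrays was. Ttpa was at least 3.31-fold lower, with adjusted p = 1.39e-09. A second Ttpa probe, at chr4:19955668-19955727, was not well above background on any young array and checks nothing. Whether either probe lies inside the deleted part is not given in the sources used here. Ttpa was at -3.34 ± 0.26 (SD, n = 4) in aged wild type on the normal diet and -5.67 ± 0.68 in Ttpa-/- mice on the supplemented diet.

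Ttpa stands in a list of genes that bind, carry or break down vitamin E. Of 18 tested members of that list, 1 was called higher and 2 were called lower, Ttpa itself among the 2. Over all tested probes, 6.03% were called higher and 3.5% lower. The median log2 change of the list was 0.07, beside -0.02 over all tested probes. Lpl, lipoprotein lipase, was the member that rose, from -3.34, -3.25, -2.55 and -2.50 to -1.21, -1.29, -1.55 and -1.06 (1.63 ± 0.18 (SE), adjusted p = 5.48e-08). Every Ttpa-/- array lay above every young array. Lpl is also expressed by disease-associated microglia, and stands in that list too. Rlbp1, a lipid-binding protein of the same fold family as the transfer protein, fell by 0.63 ± 0.19 (SE), adjusted p = 0.0116, and was no longer called without young replicate 2. The receptor Scarb1, the exporter Abca1 and the tocopherol-associated protein Sec14l2 had log2 changes of 0.29, 0.44 and -0.08, none of them called.

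Several of the largest falls lay on chromosome 4 near Ttpa itself. The strain of the DNA around the altered Ttpa gene and the number of backcrosses of the line are not given in the sources used here, so the loss of Ttpa and a difference in the DNA around it cannot be told apart for these genes. Within 25 Mb of the Ttpa probe lay 366 of the 29976 probes tested, of which 12 were called higher and 28 lower. That was 10.9% called in the window, beside 9.52% over all tested probes. Over all tested probes, 6.03% were called higher and 3.5% lower. Of the 43 probes genome-wide that were called lower by more than 4-fold, 12 lay in this window. These are probes and not separate genes. Of the 12, 7 lay 20 to 30 Mb after Ttpa, where several genes have near-identical copies, and the Car8 probes are among the others. Car8, a carbonic anhydrase-related protein of Purkinje cells that binds the inositol trisphosphate receptor and whose loss causes ataxia, lies at chr4:8070545-8070604. Its levels were 5.11, 5.09, 4.99 and 4.86 in the young arrays and 1.56, 1.44, 1.77 and 3.65 in the Ttpa-/- arrays. Replicate 4 of the Ttpa-/- group lay between the young arrays and the other Ttpa-/- arrays. Car8 fell by 2.91 ± 0.48 (SE), adjusted p = 3.18e-05, and by 3.42 without that replicate. The second Car8 probe fell by 2.68 (adjusted p = 9.92e-07). Car8 was as low in Ttpa-/- mice on the supplemented diet, at 1.67, 1.87, 1.76 and 1.88, and the difference between both diets was 0.31 ± 0.48 (SE), adjusted p = 0.922, not called. Necab1, a neuronal calcium-binding protein, fell by 2.09 in the same window. Between the diets Necab1 was too dim to be tested, with a difference of -0.06.

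A tight cluster beginning 21.8 Mb from the Ttpa probe set the 2 Ttpa-/- groups apart. Gm13298, now named Fam205a2, was at 1.65, 1.31, 1.42 and 1.63 in the young arrays and -5.65, -6.93, -5.42 and -0.34 in the Ttpa-/- arrays. It was well above background in all young arrays and in replicate 4 alone of the Ttpa-/- arrays, which again lay between. Gm13298 fell by 6.09 ± 0.86 (SE), adjusted p = 3.78e-06, and by 7.50 without replicate 4. The neighbour Ccl27a, a skin-homing chemokine with duplicate copies in this interval, was at 3.68, 3.71, 3.62 and 3.75 in the young arrays and 1.76, 1.78, 1.98 and 3.07 in the Ttpa-/- arrays. Every Ttpa-/- array was below every young array for Ccl27a (-1.54 ± 0.22 (SE), adjusted p = 4.18e-06). In Ttpa-/- mice on the supplemented diet these genes stood at the wild-type level: Gm13298 at 1.46, 1.15, 1.46 and 1.44 and Ccl27a at 3.29, 3.59, 3.67 and 3.57. The difference between the Ttpa-/- diets, within slide 5, was -5.96 ± 0.86 (SE), adjusted p = 0.000178 for Gm13298 and -1.38 ± 0.22 (SE), adjusted p = 0.000661 for Ccl27a. 4933409K07Rik and Gm3893 behaved alike, with falls of 5.46 and 5.33 from the young level. Creb3, a membrane-bound transcription factor at chr4:43579839-43579898, fell by 0.98 ± 0.13 (SE) from 2.61, 2.47, 2.65 and 2.63 to 1.16, 1.59, 1.57 and 2.11. The genes of this cluster have near-identical copies, so their probes may not tell the copies apart. Of the other Gm13298 probes, 1 fell by 6.65, 1 fell by 3.38 and 1 had a change of -0.17. Of 11 tested members of the cluster list, which also holds neighbours such as Il11ra1 (0.31), 4 were called lower and none higher.

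**Figure D3:**
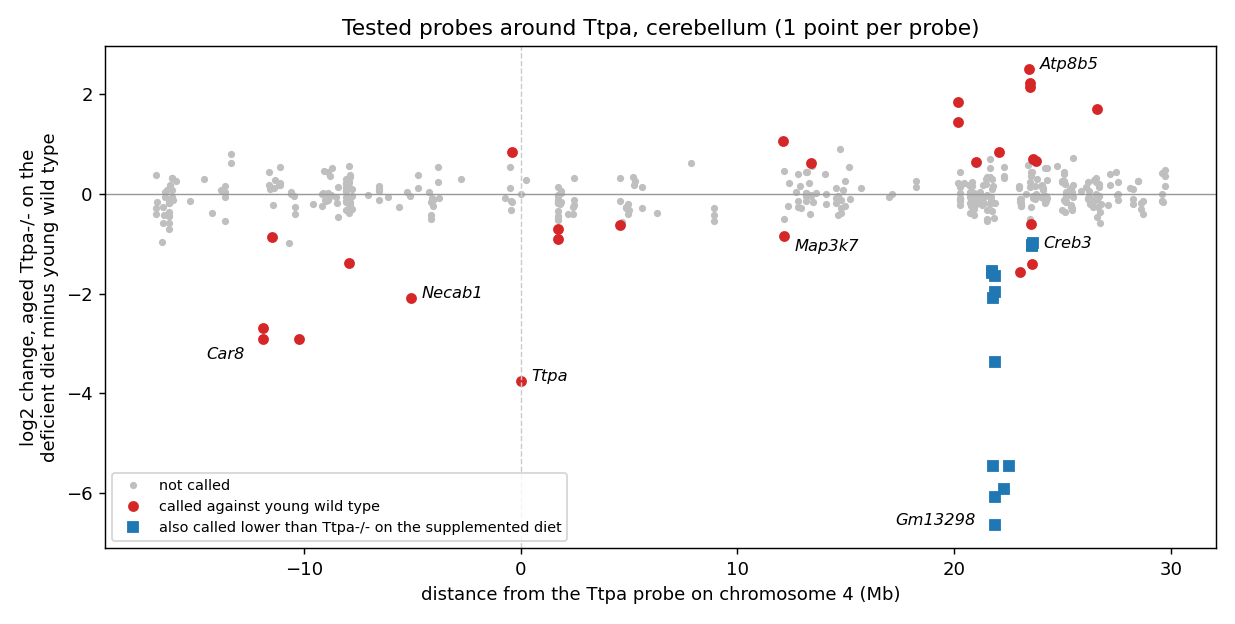
Log2 change from the young level of every tested probe between 17 Mb before and 30 Mb after the Ttpa probe on chromosome 4; grey points were not called, red points were called, and blue squares were called lower than in Ttpa-/- mice on the supplemented diet as well. Car8 is low without being called lower than in the other Ttpa-/- group, and the squares fall in a group 21.8 to 23.6 Mb after Ttpa. Necab1 and Ttpa were too dim in both Ttpa-/- groups to be tested between them.

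Several of the largest rises were genes of disease-associated microglia. Of 22 tested genes of that list, 16 were called higher and none lower, with a median log2 change of 1.92. The median was the same with 4 genes set at their lower bounds, and 6.03% of all tested probes were called higher. Cst7, the cysteine protease inhibitor cystatin F, was at -6.52, -6.80, -6.89 and -6.76 in the young arrays and -0.73, -0.77, -0.98 and -0.59 in the Ttpa-/- arrays. No young array was well above background and all Ttpa-/- arrays were, so Cst7 was at least 16.1-fold higher (adjusted p = 3.32e-14). Itgax, the integrin CD11c, was at -6.60, -6.39, -6.90 and -6.69 in the young arrays and -1.12, -0.92, -1.28 and -0.84 in the Ttpa-/- arrays. It was not well above background in the young cerebellum and was at least 13.3-fold higher (adjusted p = 1.15e-14). Clec7a, the beta-glucan receptor dectin-1, was measured in every array, at -3.59, -3.77, -3.37 and -3.79 in the young arrays and 0.60, 0.30, 0.61 and 0.89 in the Ttpa-/- arrays, a log2 change of 4.23 ± 0.32 (SE), adjusted p = 2.32e-11. The groups were separated by a wide gap for all of these genes. Gpnmb, a glycoprotein of lipid-laden phagocytes, rose by 3.41, Lilrb4 by 3.18 and Lgals3 (galectin-3) by 3.06. The receptor Trem2 rose by 2.18 and its signalling partner Tyrobp by 1.69. Apoe, the lipid carrier of the same state, had a change of 0.52 (adjusted p = 0.000124), under the fold required.

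Ccl3 and Ccl4, chemokines for monocytes and T cells, were not well above background in any young array and were at least 9.25-fold and 8.78-fold higher. Their levels in the Ttpa-/- arrays were -1.37, -1.31, -2.01 and -1.59 for Ccl3 and -1.76, -1.30, -1.88 and -1.47 for Ccl4. Clec4d, a C-type lectin of myeloid cells, was at least 2.73-fold higher and Ccl8, a monocyte chemokine, at least 3.22-fold, with adjusted p = 6.9e-06 and 6.31e-05. Of 13 homeostatic genes, which mark resting microglia, 6 were called higher and none lower (median 0.54). Gpr34, a lysophosphatidylserine receptor, rose by 1.29, Aif1 (IBA1) by 1.20 and Tmem119 by 0.87. P2ry12, the purinergic receptor of surveying microglia, had a change of 0.36 ± 0.17 (SE), adjusted p = 0.128, which was not called.

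Complement proteins tag cells and debris for uptake. Of 16 tested, 10 were called higher and 1 lower (median 1.19, or 1.08 with Cfb at its lower bound). C4b, the classical-pathway component C4, was at 0.27, 0.69, 1.25 and 1.30 in the young arrays and 4.02, 4.48, 3.99 and 4.50 in the Ttpa-/- arrays. The lowest Ttpa-/- array was above the highest young array by more than 2 on the log2 scale, and the change was 3.37 ± 0.22 (SE), adjusted p = 9.49e-13. The 3 chains of C1q rose together, C1qa by 1.60, C1qb by 1.32 and C1qc by 1.82, and C3 rose by 1.34 (adjusted p = 1.4e-06) on its brighter probe and by 3.63 on the other (adjusted p = 5.71e-09). The complement regulator Cd55 fell by 0.60 (adjusted p = 0.0128) and was not called without young replicate 1. Among 21 lysosomal genes, 5 were called higher and none lower (median 0.23). They were the lysozymes Lyz1 and Lyz2 (2.50 and 2.06), Cd68 (2.40), Ctss (2.04) and Ctsh (0.79). Ctss, a protease that trims the invariant chain in antigen-presenting cells, went from 2.02, 2.46, 2.66 and 2.61 to 4.33, 4.62, 4.29 and 4.68. Lyz1 and Lyz2 are near-identical, so their probes may share signal. General lysosomal genes such as Lamp1 (-0.03), Ctsb (0.11) and Psap (-0.24) were not called.

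Most genes of antigen presentation through MHC class I and most interferon-stimulated genes were called higher. Of 22 tested interferon-stimulated genes, 18 were called higher and none lower, with a median log2 change of 1.35. Of 13 MHC class I genes, 12 were called higher and none lower, with a median of 1.25. Type I interferon acts through a factor complex that holds STAT2 and IRF9 and binds a sequence element in the promoters of these genes. A core of that element, GAAANNGAAA on either strand with N any base, was found in 3.04% of 27025 mouse promoters over the 250 bases before the start of the gene. Of the 18 called genes, 14 had a promoter in the RefSeq table, too few to read a share from, and 7 of the 14 held the core. Over the 22 tested genes of the list, 9 of 17 with a promoter held it. Gbp3 and Stat2, which were not called, were among the 9. Irf7, Irf9 and Oasl2 were among those without it, and of the 10 class I genes called higher that had a promoter, 2 held the core. 4 promoters that hold it are shown, of members described next, from RefSeq on GRCm38.p6, 5′ to 3′ in the direction of the gene, with the core in capitals.

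Ifit1, chr19:34640639-34640888, plus strand: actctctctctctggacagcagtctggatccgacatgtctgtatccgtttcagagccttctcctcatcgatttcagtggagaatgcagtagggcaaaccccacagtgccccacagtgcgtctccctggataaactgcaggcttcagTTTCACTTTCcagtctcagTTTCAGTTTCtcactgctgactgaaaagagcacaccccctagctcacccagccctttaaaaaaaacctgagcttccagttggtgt
Ifit3, chr19:34583279-34583528, plus strand: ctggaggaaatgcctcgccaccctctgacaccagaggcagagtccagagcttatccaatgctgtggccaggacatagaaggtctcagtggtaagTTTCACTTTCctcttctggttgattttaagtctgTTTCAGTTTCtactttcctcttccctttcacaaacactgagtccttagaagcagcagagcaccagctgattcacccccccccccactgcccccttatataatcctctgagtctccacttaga
Isg15, chr4:156200819-156201068, minus strand: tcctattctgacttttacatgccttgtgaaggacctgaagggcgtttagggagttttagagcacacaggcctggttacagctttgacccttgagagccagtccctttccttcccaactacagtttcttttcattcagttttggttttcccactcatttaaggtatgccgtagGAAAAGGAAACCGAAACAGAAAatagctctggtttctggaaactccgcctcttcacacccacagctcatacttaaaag
B2m, chr2:122147437-122147686, plus strand: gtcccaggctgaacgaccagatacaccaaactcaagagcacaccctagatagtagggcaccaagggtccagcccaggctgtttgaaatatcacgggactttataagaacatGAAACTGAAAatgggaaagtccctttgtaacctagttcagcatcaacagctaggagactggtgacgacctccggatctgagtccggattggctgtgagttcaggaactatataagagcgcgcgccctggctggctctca

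Ifit1, which binds viral RNA lacking host methylation, was at -3.97, -3.45, -2.26 and -2.98 in the young arrays and -0.91, -1.02, -1.14 and -0.32 in the Ttpa-/- arrays. The lowest Ttpa-/- array was above the highest young array, and the change was 2.32 ± 0.37 (SE), adjusted p = 1.94e-05. Ifit3, its partner, rose by 1.73 and the ubiquitin-like modifier Isg15 by 1.26. Oas1a and Oasl2, of the oligoadenylate synthetase family, rose by 2.06 and 2.30. Usp18, which removes Isg15 from proteins, rose by 2.20, and Ifi27l2a by 2.34. Among the factors of the pathway, Irf7 rose by 1.75 and Irf9 by 1.37 (adjusted p = 0.00137 and 2.41e-06), whereas Stat2 had a change of 0.11 and was not called. Ddx58, the RNA sensor RIG-I, which lies in the chromosome 4 window described above, rose by 1.45 on the brighter of its probes. Cxcl10, an interferon-induced chemokine for T cells, was at -4.23, -3.79, -4.79 and -4.33 in the young arrays and -0.56, -0.28, -0.83 and -0.03 in the Ttpa-/- arrays. It was well above background in 2 of the 4 young arrays, and rose by 3.86 ± 0.33 (SE), adjusted p = 3.29e-10.

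B2m, the light chain of class I molecules, was at 2.96, 3.33, 3.24 and 3.13 in the young arrays and 4.36, 4.45, 4.30 and 4.49 in the Ttpa-/- arrays. Its groups did not overlap, and it rose by 1.24 ± 0.14 (SE), adjusted p = 9.03e-08. Of the heavy chains, H2-K1 rose by 1.40, H2-D1 by 0.61 and the non-classical H2-M3 and H2-T23 by 1.25 and 0.75. Among genes of the peptide supply, the immunoproteasome subunits Psmb8 and Psmb9 rose by 1.82 and 1.28 and the transporter chains Tap1 and Tap2 by 1.30 and 1.27. Nlrc5, the transcriptional activator of class I genes, was well above background in 2 of 4 young arrays and rose by 2.16. H2 genes have near-identical paralogs, so the probes may share signal. Class II genes gave 1 call among 6 tested (median 0.50): H2-DMb1, a peptide exchange chain, rose by 1.16 ± 0.13 (SE), adjusted p = 1.08e-07. Cd74, the invariant chain, was at -1.52, -1.93, -2.12 and -1.45 in the young arrays and -1.41, -1.77, -1.66 and -1.23 in the Ttpa-/- arrays. The groups overlapped for Cd74, and its change of 0.24 was not called (adjusted p = 0.613). Against aged wild type on the normal diet, 6 of 7 tested class II genes were called lower in the Ttpa-/- cerebellum, with a median log2 change of -1.17 (1.79% of all tested probes were called lower in that comparison). Cd74 was lower by 1.28 there (adjusted p = 0.00562).

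Lymphocyte genes were mostly dim. Of 7 tested T cell and cytotoxic genes, 3 were called higher, and 1 to 7 under the alternatives in processing. Ccl5, a chemokine of T cells and activated microglia, rose from -3.60, -3.68, -3.90 and -3.40 to -1.09, -0.48, -1.02 and -0.02 (2.99 ± 0.30 (SE), adjusted p = 7.83e-09). Gzmk and Cd4 rose by 0.63 and 0.61, and neither call held under median scaling. Igh-VJ558, an immunoglobulin heavy chain variable segment with many near-identical copies, was at -6.34, -3.88, -4.55 and -3.77 in the young arrays and -0.88, -0.96, -1.25 and -2.36 in the Ttpa-/- arrays and rose by 3.27 ± 0.65 (SE), adjusted p = 0.000329. The 2 chains of the B cell receptor complex moved apart: Cd79a rose by 0.81, and Cd79b was well above background in all young arrays and in none of the Ttpa-/- arrays, at least 1.76-fold lower (adjusted p = 0.000588). With normexp background correction neither was called. Of 17 endothelial genes, 5 were called higher and none lower, led by Pglyrp1 (1.31) and Vwf, the von Willebrand factor (0.92), while Cldn5, the tight junction claudin, had a change of -0.06. Without young replicates 1 and 2, 2 of the 5 endothelial calls held. Col3a1, a fibrillar collagen, fell by 1.44 (adjusted p = 0.000309), and 2 of 10 tested collagen genes were called lower.

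Most reactive astrocyte genes were called higher, while genes of resting astrocytes and Bergmann glia mostly did not pass the test. Of 15 tested reactive genes, 13 were called higher and none lower (median 1.24). Serpina3n, a serine protease inhibitor of reactive astrocytes, was well above background in 3 young arrays and all Ttpa-/- arrays, at -4.61, -4.40, -3.77 and -3.58 in the young arrays and -1.57, -0.85, -1.54 and -1.38 in the Ttpa-/- arrays. It rose by 2.75 ± 0.42 (SE), adjusted p = 1.11e-05. Gfap, the intermediate filament of astrocytes, was at 1.98, 2.07, 2.18 and 2.07 in the young arrays and 3.25, 3.47, 3.32 and 3.15 in the Ttpa-/- arrays, with no overlap, and rose by 1.22 ± 0.18 (SE), adjusted p = 8.92e-06. Its 3 probes were all called higher. Lcn2 (lipocalin-2) rose by 1.72, Osmr, the oncostatin M receptor, by 1.37, Timp1 by 1.36 and Aspg by 1.24. Vim, vimentin, had a change of 0.25 and was not called. Of 17 Bergmann glia and astrocyte genes, 1 was called higher and 1 lower (median -0.02). Gjb6, connexin 30, rose by 0.86 (adjusted p = 0.000952). Fabp7, the brain lipid-binding protein of radial and Bergmann glia, was at 3.83, 4.05, 4.05 and 2.45 in the young arrays and 1.59, 0.33, 1.06 and 1.78 in the Ttpa-/- arrays. Every Ttpa-/- array was lower than every young array, and Fabp7 fell by 2.41 ± 0.37 (SE), adjusted p = 1.14e-05. The glutamate transporters Slc1a2 and Slc1a3, the water channel Aqp4 and Gdf10 had changes of -0.03, -0.04, -0.21 and 0.21.

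**Figure D4:**
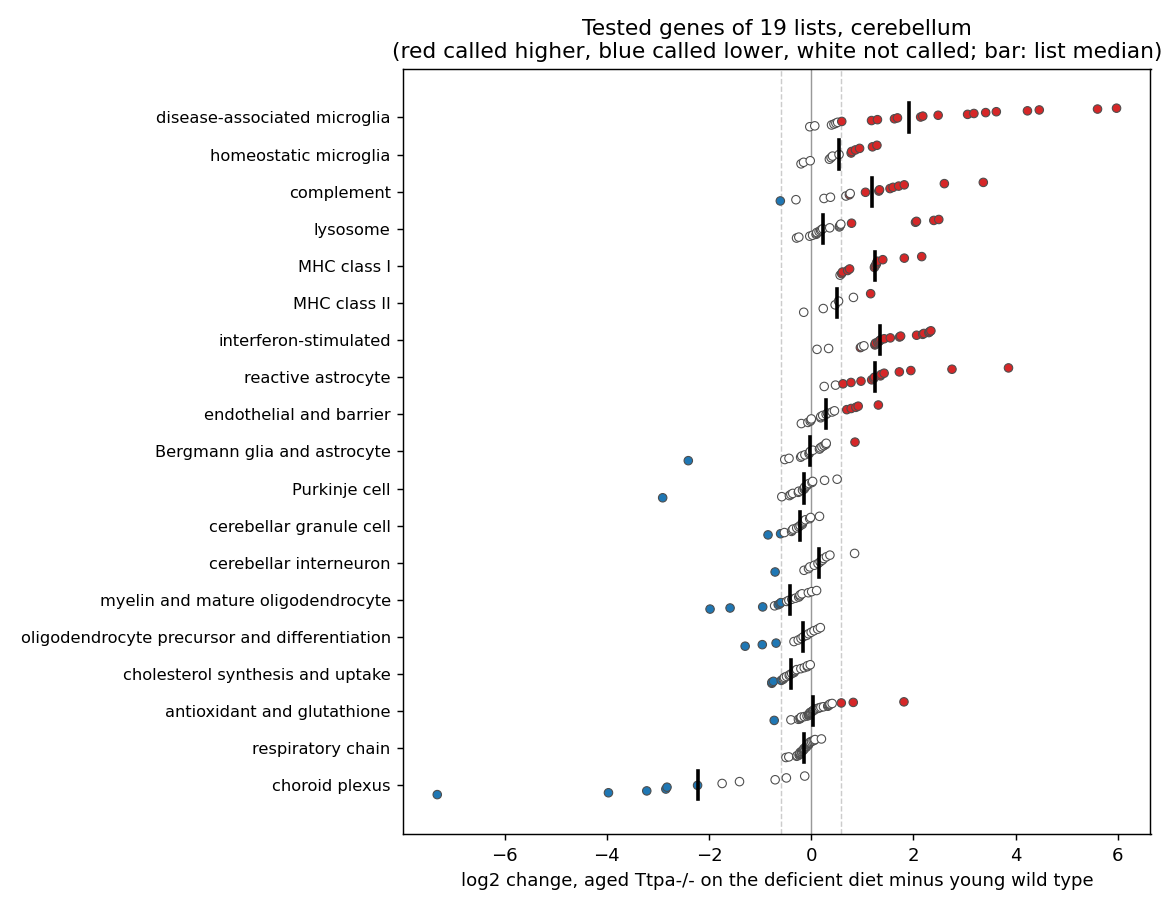
Log2 change from the young level of each tested gene of 19 gene lists; each point is a gene by its brightest probe, red called higher, blue called lower, white not called, the black bar is the list median and dashed lines mark a fold change of 1.5. Microglial, complement, class I, interferon and reactive astrocyte lists lie to the right of 0 (medians from 0.54 to 1.92), and neuronal and respiratory chain lists lie close to 0.

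Oligodendrocytes wrap axons in myelin. Of 18 tested genes of mature oligodendrocytes, none was called higher and 6 were called lower (median -0.41), between 2 and 8 under the alternatives and 3 without Ttpa-/- replicate 4. Opalin, a glycoprotein of the paranodal myelin loops, was at -1.36, -0.58, -0.37 and -0.29 in the young arrays and -3.09, -2.13, -2.85 and -2.45 in the Ttpa-/- arrays. It fell by 1.98 ± 0.39 (SE), adjusted p = 0.000299, with no overlap between the groups. Ugt8a, which makes galactocerebroside for myelin, fell by 0.95 (adjusted p = 0.0212), Mag by 0.65, Cldn11 by 0.61 and Mog by 0.59. Mbp, an abundant myelin protein, had a change of -0.38 and was not called. Enpp2 (autotaxin) is made by choroid plexus as well as by oligodendrocytes. It fell by 1.59, and without young replicates 1 and 2 its change was -0.78 with adjusted p = 0.0981. Among 13 genes of precursors and early differentiation, 3 were called lower and none higher. They were Gpr17 and Enpp6, which mark cells about to form myelin, and Olig1, with falls of 0.96, 1.29 (-0.65 and not called on its other probe) and 0.69, while the precursor marker Pdgfra was at 0.00.

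Cholesterol synthesis in brain serves above all the making of myelin. Of 20 tested, 4 were called lower and none higher, with a median of -0.40. Sqle, squalene epoxidase, went from 2.91, 3.00, 3.13 and 3.09 in the young arrays to 2.02, 2.45, 2.17 and 2.41. The groups did not overlap and Sqle fell by 0.77 ± 0.10 (SE), adjusted p = 1.99e-06. Dhcr7 and Mvd, of the last and an early step of the pathway, fell by 0.77 and 0.74, and Lss by 0.59. Srebf2, a transcription factor of the pathway, had a change of -0.28, not called, and its other probe was called higher (0.70, adjusted p = 7.17e-05).

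Calls among neuronal marker genes stand beside 6.03% called higher and 3.5% called lower over all tested probes. Car8 was the single call, lower, among 18 tested Purkinje cell genes (median -0.13). The other Purkinje genes included Pcp2 (-0.12), Calb1 (-0.43), Pvalb (-0.08) and the nuclear receptor Rora (-0.58). Of 17 granule cell genes, 2 were called lower and none higher (median -0.22). Cdh15, M-cadherin of granule cells, fell by 0.84 (adjusted p = 3.61e-06), and Slc17a7, the vesicular glutamate transporter, by 0.60. The Slc17a7 call was lost without Ttpa-/- replicate 4 (-0.39, adjusted p = 0.0834), and without young replicate 1 its change of -0.58 was just under the fold required. Gabra6, a receptor subunit particular to granule cells, had a change of -0.52, under the fold required. Calb2, calretinin, was the single call among 12 interneuron genes, lower by 0.71 (adjusted p = 0.0382), and was lost under 9 alternatives. The globin genes were not called (Hbb-b1 at 1.81). Th, tyrosine hydroxylase, which Purkinje cells of the mouse can express, rose by 1.59 (adjusted p = 1.93e-09). Th is made by brainstem neurons too, and stands in a list of 13 brainstem markers. With Th included, the list summed to 3.00 to 3.55 times the 75th percentile in the young arrays and 7.18 to 10.3 in the Ttpa-/- arrays. Only 2 or 3 of the 13 were above background on each Ttpa-/- array. Th is part of the sum, so the sum is no separate measure of brainstem tissue. Of that list only Th and Chat, which makes acetylcholine, were bright enough to be tested, and Chat had a change of 0.27 and was not called. The part of brainstem tissue in the Th value was not tested.

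Of 24 tested genes of hereditary ataxias, 3 were called lower and none higher, Ttpa and Car8 among them. Mttp, needed for the lipoproteins that carry vitamin E, had a change of 0.04. Among 14 genes of immature neurons, 3 were called lower (Ccnd1 by 0.87, Marcksl1 by 0.86, Tubb2b by 0.62, with -0.39 and no call on its other probe) and 1 higher (Nes, 0.59). Pdlim3, an actin-binding protein of muscle, had the tightest of the large falls, from -1.30, -0.75, -0.98 and -1.0 to -3.81, -3.82, -4.10 and -3.41. It fell by 2.77 ± 0.15 (SE), adjusted p = 1.15e-14.

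Of the 12 largest falls named by the rule for this comparison, 4 were markers of the choroid plexus (Ttr, Krt18, Sostdc1 and Prlr), the epithelium in the ventricles that secretes cerebrospinal fluid, which varied widely among the young arrays. Of 11 tested, 6 were called lower and none higher (median -2.22, or -1.85 with Sostdc1 and Krt18 at their bounds). Ttr, transthyretin, the thyroid hormone carrier made by this epithelium, was at 7.78, 4.64, 2.55 and 1.19 in the young arrays and -2.77, -3.13, -3.99 and -3.23 in the Ttpa-/- arrays. Young replicate 1 was the highest and the lowest young array was still above every Ttpa-/- array. Ttr fell by 7.32 ± 1.27 (SE), adjusted p = 6.94e-05, and without young replicates 1 and 2 it fell by 5.15 (adjusted p = 0.0119). Kcne2, a potassium channel subunit, was at 2.34, -1.15, -3.26 and -3.52 in the young arrays and not well above background in any Ttpa-/- array, at least 10.1-fold lower (adjusted p = 0.00118). Krt18, a keratin, was at least 8.97-fold lower and Sostdc1, a secreted BMP antagonist, at least 3.59-fold. Without both young replicates, Kcne2, Sostdc1 and Prlr, the prolactin receptor, were no longer called (adjusted p = 0.0786, 0.235 and 0.312), and 2 of the 6 calls of the list held. Leaving them out was chosen after seeing the data. A second Prlr probe, above background on all 8 arrays, had a change of 0.13. Otx2, a transcription factor of the epithelium, had a change of -0.13.

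Calml4 and Mlf1 also had their highest level in young replicate 1, and Ccdc153 in young replicate 4. Calml4, at 0.01, -2.74, -3.45 and -2.19 in the young arrays, was at least 6.25-fold lower (adjusted p = 0.00175). Mlf1 and Ccdc153, genes of ciliated cells, were at -2.16, -4.04, -3.75 and -3.21 and -3.44, -2.67, -1.62 and -0.99 in the young arrays. Mlf1 was at least 2.73-fold lower and Ccdc153 fell by 2.43. Serpinb2, a plasminogen activator inhibitor, was even among the young arrays, at -3.89, -4.12, -3.89 and -4.58, and at least 1.53-fold lower (adjusted p = 1.6e-05). The Serpinb2 call was lost with normexp background correction.

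Vitamin E is a chain-breaking antioxidant of membranes. Of 35 tested genes of antioxidant defence and glutathione, 3 were called higher and 1 lower, near the 6.03% and 3.5% of all tested probes. Their median was 0.03, and was below 0 under median scaling. Gpx3, the secreted glutathione peroxidase, was at -1.83, -2.87, -2.19 and -1.55 in the young arrays and -0.21, 0.22, -0.42 and -0.77 in the Ttpa-/- arrays. The groups did not overlap and Gpx3 rose by 1.82 ± 0.29 (SE), adjusted p = 2.17e-05. Nfe2l2, the transcription factor NRF2, rose by 0.82 ± 0.11 (SE), adjusted p = 2.02e-06. Its usual targets were not called: Hmox1 was at 0.32, Nqo1 at 0.37, Gclm at -0.01 and Txnrd1 at 0.06. Gpx4, which reduces lipid peroxides in membranes, had a change of -0.04 ± 0.10 (SE), and the superoxide dismutases Sod1 and Sod2 of 0.19 and -0.08. Mgst1 rose by 0.59 and Gpx8 fell by 0.72, each on the edge of the fold required. None of 31 respiratory chain genes was called (median -0.13). Cox17, a copper chaperone for the last complex of that chain, is described with the aged groups below.

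Of 12 iron genes, Tfrc was called lower and Heph higher. Tfrc, the transferrin receptor, was at 1.82, 1.65, 1.67 and 1.52 in the young arrays and 0.46, 0.50, 0.56 and 0.10 in the Ttpa-/- arrays, without overlap. It fell by 1.26 ± 0.14 (SE), adjusted p = 9.45e-08, on all 3 probes. The ferritin chains Fth1 and Ftl1 had changes of 0.18 and 0.38 and were not called. Heph, a ferroxidase, rose by 0.69, a call lost under 7 alternatives and not made by its other probe (0.21). Among 13 phospholipases A2, Pla2g5 was called higher (0.75, adjusted p = 0.0142) and none lower. Pla2g3 had a change of 0.45 ± 0.40 (SE), adjusted p = 0.436, not called. Of 19 amyloid genes, Ece2, an endothelin-converting enzyme that can degrade amyloid beta, was the single call and fell by 0.83, while its other 2 probes, above background on all 8 arrays, had changes of 0.22 and -0.18 and were not called. Ide, insulin-degrading enzyme, had a change of -0.33 ± 0.21 (SE), adjusted p = 0.262, and App and Bace1 of -0.05 and -0.30, none called.

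Cdkn2a, which encodes the senescence proteins p16 and ARF, was at -5.18, -6.90, -6.41 and -7.09 in the young arrays and -4.39, -3.25, -3.39 and -3.51 in the Ttpa-/- arrays. No young array was well above background and all Ttpa-/- arrays were, so Cdkn2a was at least 2.21-fold higher (adjusted p = 3.38e-07). Of its list of 16 cell cycle inhibitors and p53 targets, Cdkn2c was the other call (0.97). Cdkn1a (p21) was at 0.17. Ostn, the secreted peptide osteocrin, was well above background in 1 young array and all Ttpa-/- arrays, at -5.76, -4.07, -7.12 and -5.67 in the young arrays and -1.80, -1.57, -1.62 and -1.65 in the Ttpa-/- arrays. It rose by 4.00 ± 0.41 (SE), adjusted p = 1.41e-08. Of the insulin-like growth factor genes, Igfbp7 rose by 1.39 and Igf1 by 0.60 on the brightest of its probes, with changes from -0.05 to 0.46 on the other 3, among 12 tested.

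Among 19 heat shock chaperones, 4 were called higher and none lower: Hspa2 (1.18), Hspb1 (1.18), Bag3 (0.85) and Hspa5, the chaperone of the endoplasmic reticulum (0.59). Clock genes gave 4 calls higher among 16 tested. Per2 was at -3.04, -2.49, -2.69 and -0.62 in the young arrays and -0.16, -0.32, -0.75 and -0.61 in the Ttpa-/- arrays, and the groups overlapped. Per2 rose by 1.75 ± 0.29 (SE), adjusted p = 3.25e-05, Per1 by 0.84 and Cry1 by 0.73, while Arntl, which acts in antiphase to Per genes, was at -0.48 and Dbp at -0.30. Immediate early genes, which respond to activity and handling within minutes, went both ways, with 4 called higher and 2 lower of 14. Fosl2 rose by 0.99, Npas4 by 0.94 and Fosb by 0.69, and Jun and Egr4 fell by 0.94 and 0.69. Without young replicate 1 the higher calls among immediate early genes went from 4 to 1. The hour of dissection is not given in the sources used here, and its part in these values was not tested.

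The Ttpa-/- cerebellum was next set beside the other aged groups. Against aged wild type on the normal diet, 817 of 30604 tested probes were higher (2.67%) and 549 lower (1.79%). The changes of Cst7 from the young level were at least 16.1-fold in the Ttpa-/- group, with measured means of 0.33 ± 0.28 (SD, n = 4) in aged wild type on the normal diet, 0.00 ± 0.43 in aged wild type on the deficient diet, -0.21 ± 0.24 in Ttpa-/- on the supplemented diet and -0.77 ± 0.16 in Ttpa-/- on the deficient diet. Cst7 was lower by 1.10 than in aged wild type on the normal diet (adjusted p = 0.0269). Lyz2, a lysozyme of macrophages and microglia, was lower by 1.27 (adjusted p = 0.000381), Gpnmb by 0.85 and Lpl by 0.67. Of the 22 genes of disease-associated microglia, 7 were called lower than in aged wild type on the normal diet and none higher (median -0.56). For interferon-stimulated genes that median was 0.05, with 0 higher and 0 lower of 22. C4b stood at 4.43 ± 0.21 in aged wild type and 4.25 ± 0.28 in the Ttpa-/- group, a difference of -0.19 that was not called.

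A few genes separated the Ttpa-/- groups from every wild-type group. Bex6, of the Bex family of small adaptor proteins, was at -6.81, -7.17, -5.35 and -7.11 in aged wild type on the normal diet and -3.83, -4.17, -3.96 and -3.28 in the Ttpa-/- arrays. It was well above background in none of the 4 young arrays and all of the Ttpa-/- arrays, and was at least 1.96-fold higher than in the young (adjusted p = 2.15e-10). Cox17 was at -3.80, -4.30, -4.15 and -3.90 in aged wild type and -2.39, -2.06, -1.99 and -2.07 in the Ttpa-/- arrays, higher by 1.91 ± 0.23 (SE), adjusted p = 1.24e-06. Both lie on chromosome 16, Bex6 at chr16:32186929-32186988 and Cox17 at chr16:38352772-38352831. Bex6 and Cox17 were as high in Ttpa-/- mice on the supplemented diet, with differences between the diets of 0.47 and 0.11 that were not called. The second probe of each gene was too dim to be tested. Barhl2, a homeobox factor of neurons, was higher than in aged wild type by 2.09, and the olfactory receptor gene Olfr1173 by 2.13. Lyar, a nucleolar protein that was not well above background in aged wild type, was at least 1.78-fold higher. Their changes from the young level were 1.79, 1.26 and, for Lyar, 0.67, which was not called. Acp5, a tartrate-resistant phosphatase, was lower than in aged wild type by 2.42, but its level of -2.77 ± 0.35 overlapped the young level of -2.26 ± 0.37. Prl, prolactin, was at -4.20, -0.76, -0.84 and -4.00 in aged wild type, above background in all 4 arrays, and in none of the Ttpa-/- arrays.

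Against aged wild type on the deficient diet, 923 of 30552 probes were higher (3.02%) and 587 lower (1.92%), and 1955 and 290 with median scaling, under which the median change over all tested probes was 0.17 and not -0.01. With median scaling 87.1% of the calls were thus higher and with quantile normalization 72.9%, against 61.1%. Cox17 (2.13), Ly6f (1.99) and Barhl2 (1.64) were again among the largest rises. Bex6 and the hydrolase Abhd3 were called higher as well, from levels not well above background on any array of that wild-type group. Car8 was lower by 2.27. Ttpa was well above background in all 4 arrays of that wild-type group and in none of the Ttpa-/- arrays. Agbl3 and Sec14l4, a lipid-binding protein of the tocopherol-associated family, were well above background in every array of that wild-type group and in no Ttpa-/- array. In the young group, 3 arrays for Agbl3 and none for Sec14l4 were above background, so neither was tested there.

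The diets could be compared within the Ttpa-/- mice on 1 slide. Of 30643 probes, 41 were higher on the deficient diet (0.134%) and 64 lower (0.209%), 160 and 365 at an unadjusted p under 0.05 with the same fold. The fit to these 8 arrays alone called none. Npas4, an activity-dependent factor of neurons, was at -1.60, -2.62, -1.38 and -1.37 on the supplemented diet and 0.05, -0.23, -0.25 and -0.13 on the deficient diet. Every deficient array was above every supplemented one (1.60 ± 0.32 (SE), adjusted p = 0.00856), whereas the young arrays, at -1.69, -0.56, -0.09 and -1.96, overlapped the deficient ones. Fosl2, another factor of this class, was higher by 1.17, the splicing factor Sfpq by 0.99, Sdf2l1 of the endoplasmic reticulum by 0.99 and Fam71d by 1.81. The falls were led by Expi, now named Wfdc18 (-1.42), Ccl27a, the phospholipase Pla2g4e (-1.37), the chemokine Ccl19 (-1.21) and Creb3 (-1.03). Of these, Ccl27a and Creb3 lie in the chromosome 4 window around Ttpa described above, and Ccl19 is a member of the cluster list there. Of 11 tested members of that list, 6 were called lower on the deficient diet. Ccl19 and Pla2g4e did not differ from the young by the test (log2 changes of 0.32 and 0.32). None of the tested genes of disease-associated microglia, complement or MHC class I was called between the diets.

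**Figure D5:**
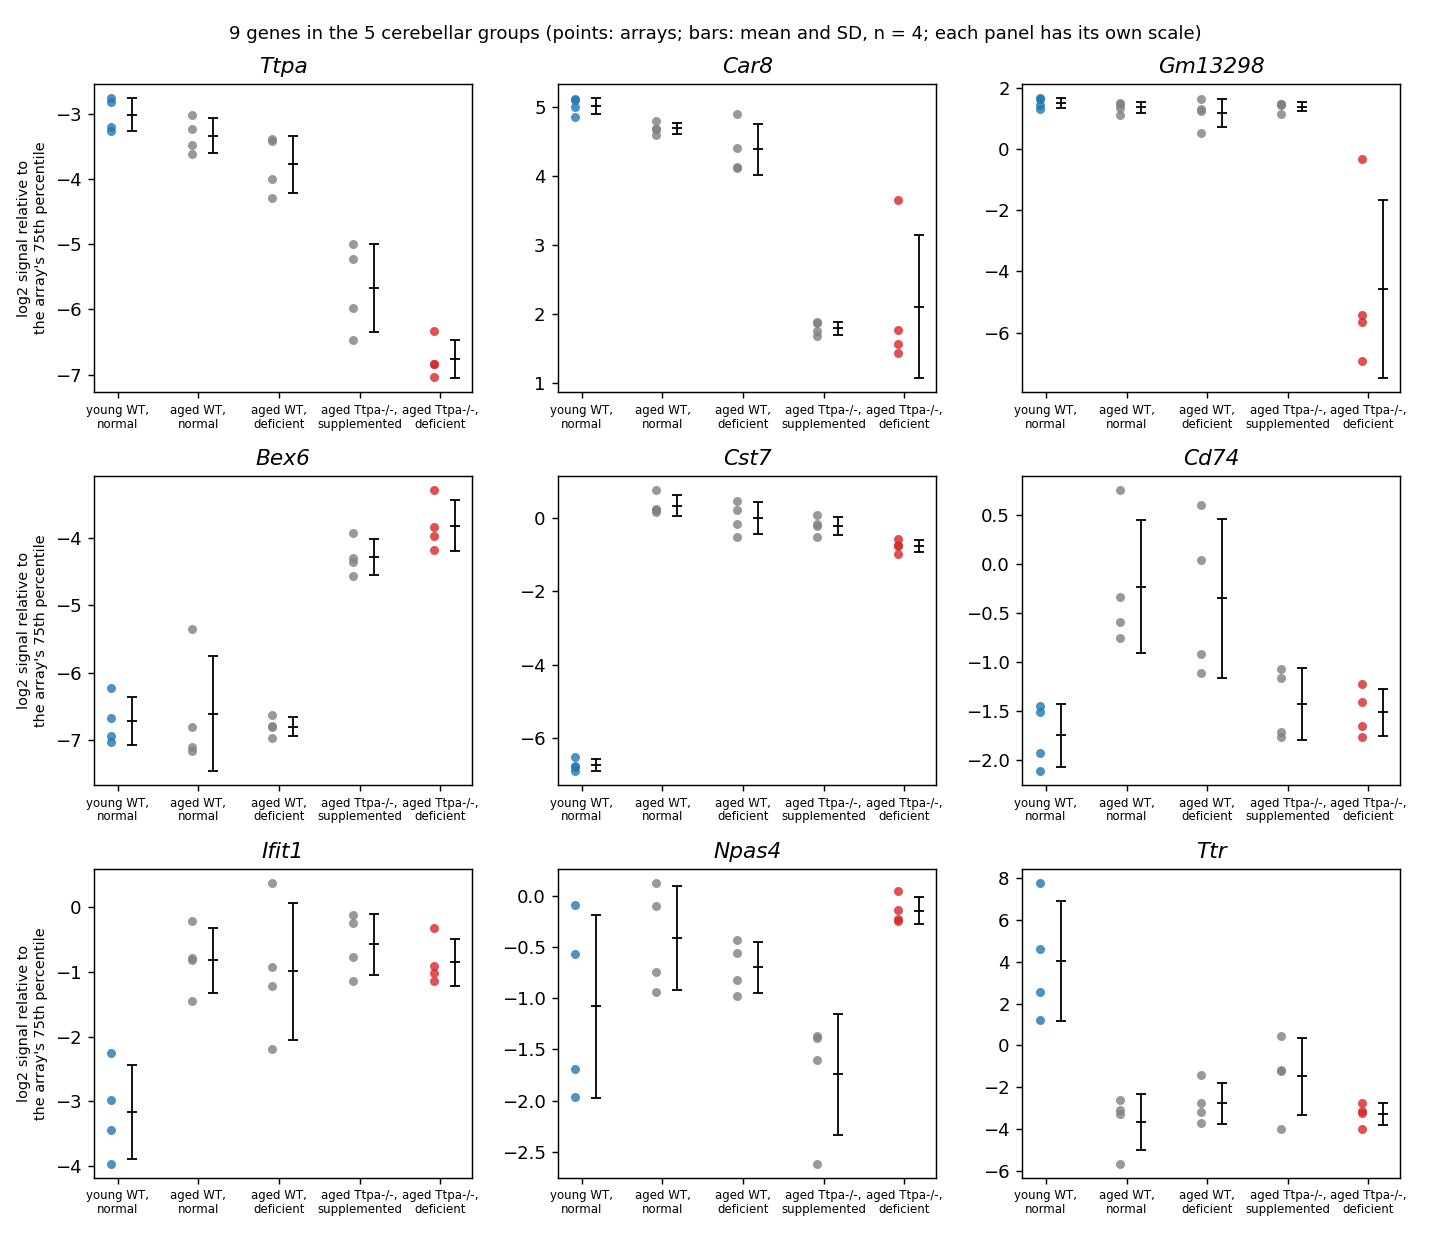
Levels of 9 genes in the 5 cerebellar groups on the log2 scale relative to the 75th percentile of each array; points are arrays, the bars beside them are the mean and SD of 4 arrays, and each panel has its own axis. Ttpa, Car8 and Bex6 set both Ttpa-/- groups apart, Gm13298 the deficient Ttpa-/- group alone, and Cst7 every aged group, while Cd74 is higher in the aged wild-type groups.

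The same 2 groups were compared in the cortex, and the difference between the regions was tested as an interaction. Whether the cerebellar and cortical arrays came from the same mice is not given in the sources used here, and the test treats them as separate. Of 31314 probes, 1117 changed by more in the upward direction in the cerebellum (3.57%) and 1042 in the downward direction (3.33%), and 299 and 671 with median scaling, under which 30.8% of the calls were upward, against 51.7%, and 41.2% with quantile normalization. Disease-associated microglial genes rose by more in the cerebellum, with 12 of 22 called in that direction and none in the other (median difference 1.02). Of these genes, 17 were well above background on at least 1 array of each of the 4 groups, and 8 of the 17 were called (median difference 0.64). Clec7a changed by 4.23 in the cerebellum and 2.88 in the cortex, a difference of 1.35 ± 0.45 (SE), adjusted p = 0.0439. C4b changed by 3.37 and 2.82, and that difference was not called (adjusted p = 0.251). Ostn was called too, but was not well above background in any of the 8 cortical arrays, so no size is given. Prokr2, a prokineticin receptor, differed by 3.18 and Tcap, a titin-binding protein of muscle, by 3.12. Bex6 and Eomes, a factor of unipolar brush cells and cortical progenitors, were called as well, with no size given because at least 1 cortical group had no array well above background. In the cerebellum alone the brighter Eomes probe was not called (0.85) and the other was called higher (1.20, adjusted p = 1.6e-05). Of the choroid plexus genes, Ttr differed by -8.38, which rests on the same young arrays as above. Car8 differed by 0.58 between the regions and was not called: it changed by -3.49 in the cortex, against -2.91 in the cerebellum.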

How the data were processed

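RNA from cerebellum and cortex was hybridised to 1-colour Agilent mouse arrays, 4 per group in 10 groups. The authors extracted the intensities with Feature Extraction (10.7.3.1 per the file headers), which subtracts background, and deposited each array's scanner output. The deposited series table holds their log2 values. The table was set against the log2 intensity of the scanner files after the probe's mean over the arrays was subtracted from both. Correlations for each array were at least 0.999984. They do not depend on the scaling of an array or the baseline of a probe, so they do not show which the authors used. Column medians ran from -0.237 to 0.186, and the table was used as an alternative. Probe positions are those of the file headers (mm9).

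Levels were computed as log2 of the processed intensity of gene probes less that of the 75th percentile of the same array, after dropping spots with outlier flags and averaging spots of a probe. Of 55681 probes, 55589 were kept. Of the 61 scanner columns 46 were not used. limma 3.58.1 in R 4.3.3 was fitted to all 40 arrays with 1 coefficient per group, as a shared estimate of the spread, and p-values were adjusted by the Benjamini-Hochberg method over the probes that were measured well above background by every array of a compared group. A call needed an adjusted p below 0.05 with more than a 1.5-fold difference. A gene is given by its brightest probe. Where a group had no array well above background, the fold is a lower bound against the dimmest signal measured above background there. Steps were tested on simulated data. Alternatives were median scaling, quantile normalization, normexp correction with an offset of 50, no filter, array weights, a block for the replicate number, fewer arrays, genes in place of probes, other thresholds, the methods' plain test of each probe, and each array left out.

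Genes named are the 12 largest rises and falls among called probes whose groups did not overlap and that have a full gene symbol, the 5 largest in each other comparison, up to 4 called members of each list with the smallest adjusted p, Ttpa, Pla2g3, Ide and Car8, and members needed to describe a list. The members and lists were chosen with earlier results of these data known. Of 21021 RefSeq accessions, 20579 matched a current symbol. Some genes that the rule or a list would name are not reported here.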

Additional observations from a re-analysis of the deposited data

Results flagged for a closer look

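1 array stood far from the other 3 of its group for 29 of 369 gene and group pairs of the genes named above that had any array above background, by a gap that took a share of the group's range above Dixon's limit for 4 values. Chance alone gives about 5% of such pairs. Ttpa-/- deficient replicate 1 was set apart by that share of the range for Abhd3 (0.836), Arntl (0.873), Cldn5 (0.941), Eomes (0.926) and Prokr2 (0.833). Ttpa-/- deficient replicate 2 was set apart by that share of the range for Cd79a (0.984), Mog (0.917) and Tubb2b (0.885). Ttpa-/- deficient replicate 4 was set apart by that share of the range for 4933409K07Rik (0.965), Car8 (0.848), Ccl27a (0.833), Ccl8 (0.848), Egr4 (0.867) and Slc17a7 (0.897). Young replicate 1 was set apart by that share of the range for App (0.867), Aqp4 (0.897), Enpp6 (0.838), Gpx8 (0.833), Marcksl1 (0.838), Rora (0.931) and Ugt8a (0.86). Young replicate 2 was set apart by that share of the range for Lyar (0.861) and Slc1a2 (0.892). Young replicate 3 was set apart by that share of the range for Hbb-b1 (0.937). Young replicate 4 was set apart by that share of the range for Agbl3 (0.838), Arntl (0.966), Cdh15 (0.843), Fabp7 (0.865) and Srebf2 (0.926).

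Named genes were chosen in part by the size of their change in these arrays and of its difference between the regions. A count of calls among them is raised by that choice. Over all tested probes, 3.57% were called upward and 3.33% downward in the cerebellum against the cortex. The alternatives were not run for this difference gene by gene. The change between the young and the Ttpa-/- group differed between the regions, by the limma interaction, for 69 of 194 named genes tested. In 19 of them at least 1 of the 4 groups had no array well above background, and they are named without a size: Abhd3, Barhl2, Bex6, Calml4, Ccl3, Ccl4, Cd79b, Clec4d, Cox17, Cst7, Eomes, Itgax, Kcne2, Krt18, Mlf1, Ostn, Serpinb2, Sostdc1 and Ttpa. For the other 50, each value is the log2 change in the cerebellum minus that in the cortex. Among microglial genes and chemokines it was 1.99 for Trem2, 1.94 for Lpl, 1.63 for Gpnmb, 1.44 for Tyrobp, 1.41 for Lgals3, 1.35 for Clec7a, 1.33 for Aif1 and 1.29 for Gpr34. Among complement and lysosomal genes it was 1.59 for Cd68, 1.51 for Ctss, 1.23 for C1qc, 1.20 for C1qa, 1.03 for Lyz1 and 0.88 for C1qb. Among interferon-stimulated and class I genes it was 1.83 for Ifit1, 1.68 for Irf7, 1.62 for Usp18, 1.0 for H2-M3, 0.92 for Irf9, 0.87 for B2m, 0.83 for Psmb8 and 0.69 for Tap2. Among astrocytic, endothelial and lymphocyte genes it was 2.35 for Cxcl10, 1.46 for Ccl5 and -1.51 for Fabp7. Among choroid plexus genes and the falls described beside them it was -2.33 for Ccdc153, -2.82 for Pdlim3 and -8.38 for Ttr. Among neuronal, myelin and cholesterol genes it was 1.16 for Th, -0.62 for Mvd, -0.66 for Sqle, -0.97 for Cdh15, -1.01 for Ccnd1, -1.06 for Marcksl1, -1.15 for Slc17a7, -1.19 for Dhcr7 and -1.48 for Calb2. Among the remaining genes it was 3.18 for Prokr2, 3.12 for Tcap, 1.16 for Pla2g5, 1.08 for Cdkn2c, 0.99 for Igfbp7, 0.82 for Hspa2, 0.76 for Il11ra1, 0.75 for Cry1, 0.70 for Sfpq, -0.87 for Jun, -0.93 for Egr4, -1.45 for Expi and -1.55 for Cd74.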

How the results depend on the processing

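The alternatives were run gene by gene for the 136 genes picked by rank or by adjusted p, or always named. Genes named only to describe a list entered them through counts of calls. Among the 136 genes no change reversed its direction under the alternatives run for them. The medians of the antioxidant, heat shock, hereditary ataxia and cell cycle lists, 0.00 to 0.03 against the young, turned to between -0.06 and -0.03 with median scaling, and that of the immature neuron list turned from -0.01 to 0.01 with quantile normalization. Median scaling also turned the balance of calls against the young from 1807 higher and 1048 lower to 1211 and 1293. Of the 136 genes, 126 were called against the young, and 89 of them stayed called under all 19 alternatives. The authors' deposited log2 values, and genes in place of probes, changed the call of none of the 136 genes. Normexp background correction ended 19 calls, leaving out young replicates 1 and 2 together 20, median scaling 13 and the fit to the compared groups alone 17. The cause was not tested. The 4 arrays in a group limit the precision of every value.

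The counts that moved by over 1.5 times are given as probes higher and lower. With median scaling they were 550 and 325 against aged wild type on the normal diet, 1955 and 290 against aged wild type on the deficient diet, 32 in both directions together against Ttpa-/- on the supplemented diet and 299 and 671 against the cortex. With quantile normalization they were 1393 and 518 against aged wild type on the deficient diet. With normexp background correction they were 831 and 484 against the young, 314 and 179 against aged wild type on the normal diet, 420 and 340 against aged wild type on the deficient diet and 870 and 669 against the cortex. In the fit to the compared groups alone they were 624 and 252 against aged wild type on the normal diet, 470 and 99 against aged wild type on the deficient diet, 0 in both directions together against Ttpa-/- on the supplemented diet and 703 and 572 against the cortex. In the fit to the 20 cerebellar arrays alone they were 44 in both directions together against Ttpa-/- on the supplemented diet. With genes in place of probes they were 1489 and 638 against the young, 662 and 351 against aged wild type on the normal diet, 755 and 367 against aged wild type on the deficient diet and 926 and 659 against the cortex. By adjusted p alone they were 4186 and 4159 against the young, 2075 and 1961 against aged wild type on the normal diet, 2480 and 1420 against aged wild type on the deficient diet, 235 in both directions together against Ttpa-/- on the supplemented diet and 1985 and 2029 against the cortex. By fold change alone they were 1242 and 1224 against aged wild type on the normal diet, 1254 and 2044 against aged wild type on the deficient diet, 860 in both directions together against Ttpa-/- on the supplemented diet and 3042 and 2219 against the cortex. By unadjusted p and fold change they were 1079 and 890 against aged wild type on the normal diet, 1147 and 1268 against aged wild type on the deficient diet, 525 in both directions together against Ttpa-/- on the supplemented diet and 1922 and 1573 against the cortex. By the methods' plain test of each probe without adjustment they were 400 in both directions together against Ttpa-/- on the supplemented diet. By the same test after Benjamini-Hochberg adjustment they were 1288 and 573 against the young, 465 and 145 against aged wild type on the normal diet, 312 and 33 against aged wild type on the deficient diet and 0 in both directions together against Ttpa-/- on the supplemented diet.

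Leaving out 1 array at a time gave these ranges. Against the young, 1570 to 1987 probes were higher and 969 to 1183 lower. Against aged wild type on the normal diet, 571 to 975 probes were higher and 378 to 703 lower. Against aged wild type on the deficient diet, 741 to 1013 probes were higher and 304 to 1302 lower. Against Ttpa-/- on the supplemented diet, 43 to 233 probes were called in either direction. Against the cortex, 793 to 1401 probes were higher and 688 to 1427 lower. The count against Ttpa-/- on the supplemented diet was 43 without Ttpa-/- deficient replicate 1, 233 without Ttpa-/- deficient replicate 2, 169 without Ttpa-/- deficient replicate 3, 69 without Ttpa-/- deficient replicate 4, 52 without Ttpa-/- supplemented replicate 2 and 55 without Ttpa-/- supplemented replicate 3. The lower count against the cortex was 688 without Ttpa-/- deficient replicate 4. The lower count against aged wild type on the deficient diet was 304 without deficient wild-type replicate 1 and 1302 without deficient wild-type replicate 4. With the replicate number as a block, 1829 probes were higher and 1059 lower than in the young, and no call among the 136 genes changed. Young and Ttpa-/- cerebellar arrays with the same number did not deviate together, with correlations of 0.0391, -0.131, -0.278 and 0.133 for numbers 1 to 4. Not every array correlated best with its own number, so the numbers do not pair young with Ttpa-/- mice. Cerebellar and cortical arrays of the same number correlated by 0.143, 0.386, 0.138 and 0.48 in the Ttpa-/- group, each best with its own number. In the young the correlations were 0.0157, -0.0441, -0.146 and 0.133, so not every pair was above 0.1. The main test between regions took the numbers as names only, and so made no use of a pairing in the Ttpa-/- group. With same-numbered arrays of both regions as a block, an alternative chosen after seeing the data, 1276 probes were higher and 1200 lower against the cortex. The slide as a block was not run, because each group lay on 1 slide, and the plain test of each probe was not run for the difference between regions.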
